A study of Bos taurus with 12 samples.

Results

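Transcripts of complement components, regulators and receptors were examined in the liver of early lactating dairy cows. Of 37 complement genes, 36 had a transcript on the array that was annotated with a single gene symbol, out of 26773 transcripts in all and 18457 with 1 symbol. Each of the 36 was measured by 1 transcript. The remaining gene, MBL1, which encodes a collectin that binds mannose, lay on 2 transcripts that were also annotated to a surfactant protein gene, and no level is given for it.

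Complement is a cascade of plasma proteins that marks microbes and damaged cells for uptake and lysis. It is started by antibody and C1q (classical pathway), by sugar-binding collectins and ficolins (lectin pathway) or by spontaneous turnover of C3 (alternative pathway), and all routes cleave C3 and end in the membrane attack complex. Hepatocytes are the main source of most of the plasma components, whereas C1q and properdin come mainly from macrophages and other myeloid cells, and membrane regulators protect host cells. Several components, among them C3 and factor B, are known as acute phase proteins, whose synthesis increases in the inflamed liver.

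The samples were liver biopsies from 6 control cows and 6 cows whose ration held GSGME, an extract of grape seed and grape marc meal rich in flavonoids. All animals were female Holstein cows on the same basal ration, which differed before and after calving. The GSGME ration contained 1% of the extract in dry matter, with 52 mg of flavonoids per g as gallic acid equivalents, and the control ration contained 1% wheat bran instead, from week 3 before calving to week 9 after it. Biopsies were taken in week 1 postpartum, at about day 7, and 1 Affymetrix Bovine Gene 1.0 ST array was run per cow. Both groups held cows of first and later calvings, and the labels do not say which cow was which, so calving number was not used in any fit. Cows are named by group and number as in their labels (control_825). The study asked which transcripts in the liver respond to GSGME at a time of metabolic and inflammatory stress, and the comparison here is of the complement transcripts between the 2 groups.

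Values are log2 signals, and a difference of the group means is GSGME minus control on that scale. Array medians were 6.02 to 6.17 and pairs of arrays correlated at 0.968 to 0.990 across transcripts. All 10 hepatocyte markers measured, among them albumin and transthyretin, were above the median transcript (6.07). Because a biopsy mixes cell types, fewer cells of a type and less RNA per cell cannot be told apart. No complement transcript was close to background, taken as the 90th percentile of 717 olfactory receptor transcripts (5.23), and 35 of the 36 were above the median transcript. The exception was the C5a receptor gene C5AR1.

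None of the 36 complement transcripts differed between the groups by the study's criterion, a fold beyond 1.3 with an unadjusted p under 0.05 (limma). Of all transcripts, 1.83% met it, 1.2% higher and 0.624% lower in GSGME cows. At an unadjusted p under 0.05 without the fold, 4 complement transcripts (11.1%) passed, against 5.85% of all transcripts. The mannan-binding lectin gene MBL2 and the factor D gene CFD had the higher mean in GSGME cows, where the background was 2.68%. The membrane cofactor gene CD46 and the lectin pathway protease gene MASP2 had the lower mean, where the background was 3.17%. After cyclic loess normalization 5 complement transcripts passed at this p, against 5.85% of all: MBL2, CD46 and MASP2 again, and with them C4A and C5AR1, while CFD did not (unadjusted limma p of 0.0827). At a fold beyond 1.2 with the same p, MBL2 and CFD passed with the higher mean, where 2.04% of all transcripts did, and no complement transcript passed with the lower mean, where 1.83% did. After Benjamini-Hochberg adjustment over all transcripts no transcript on the array passed (0%), and the lowest adjusted p from limma, among these genes and among all, was 0.830.

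The 95% interval of the difference lay within a fold of 1.3 in both directions for 23 of the 36 genes (63.9%), against 59.6% of all transcripts. For the other 13 genes the 12 cows did not limit the difference to that size. The mean was higher in GSGME cows for 22 genes and lower for 14, against 45.2% higher of all transcripts, but after cyclic loess normalization 17 were higher and 19 lower, against 50.7% higher of all. The median difference of the 36 genes was 0.02, beside -0.02 for all transcripts, and after cyclic loess both the sign and the order turned, with -0.01 for the 36 genes and 0.0022 for all.

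**Figure D1:**
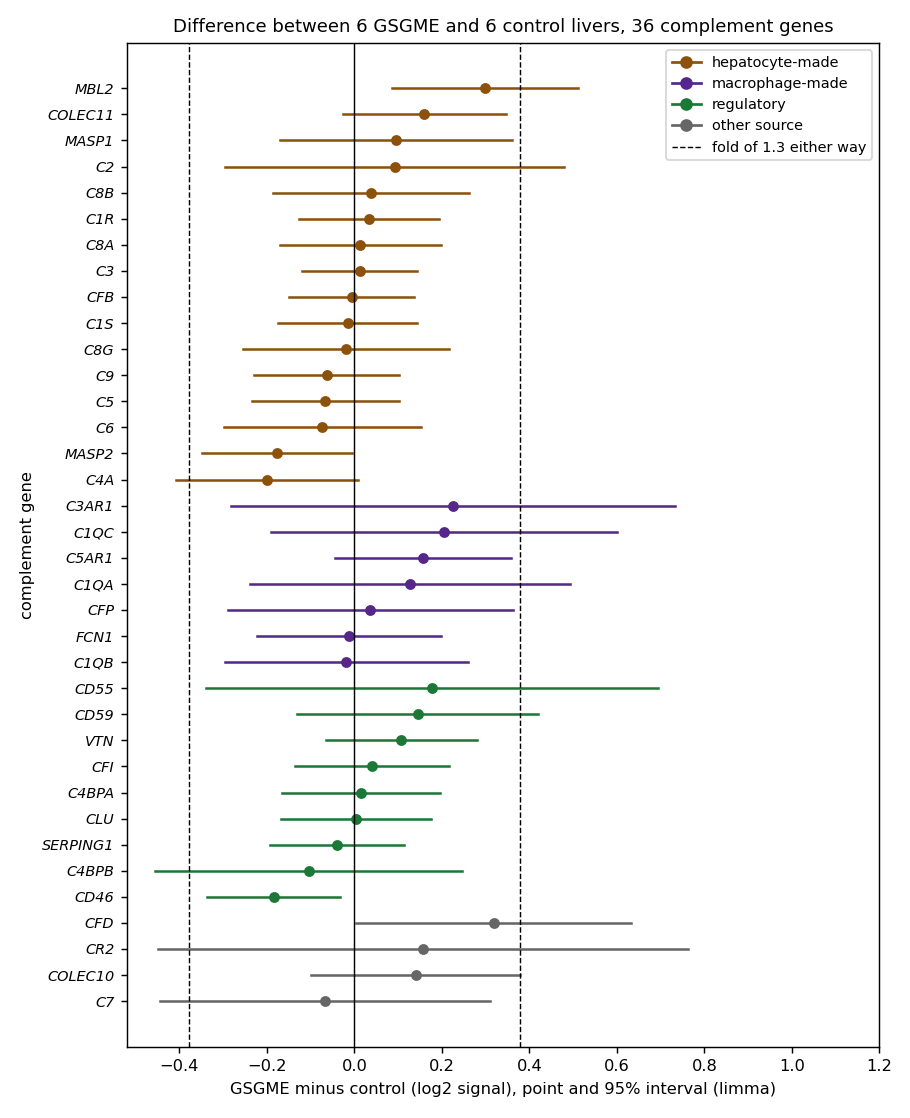
Difference between GSGME and control cows (GSGME minus control, log2 signal, x axis) for each of the 36 complement genes (y axis), as a point with its 95% interval from limma, coloured by source class; dashed lines mark a fold of 1.3 either way. No point lies beyond the dashed lines, the C3 interval is the narrowest and those of CR2, CD55 and C3AR1 are wide.

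The lectin pathway held the lowest p among the complement genes. MBL2 encodes the collectin that binds mannose on microbes and carries the MASP proteases. Its signal was 11.25 to 11.72 in control cows (median 11.57) and 11.67 to 11.99 in GSGME cows (median 11.81). All 6 GSGME cows were above the control mean and 3 were above the highest control cow, while the other 3 overlapped with the control range. The difference was 0.30 ± 0.10 (SE), a fold of 1.23 with a 95% interval of 1.06 to 1.43 (limma p = 0.0094, exact permutation p = 0.0108, adjusted p = 0.830). It was 0.24 to 0.34 when each cow was left out in turn, with an unadjusted limma p of 0.0049 to 0.0245.

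MASP2, the protease that cleaves C4 and C2 after MBL2 has bound, had its means in the other order. Control cows were at 10.62 to 10.95 (median 10.73) and GSGME cows at 10.46 to 10.68 (median 10.59). All 6 GSGME cows were below the control mean, and 3 were below the lowest control cow. The difference was -0.18 ± 0.08 (SE; limma p = 0.0435, exact permutation p = 0.0195, adjusted p = 0.830), and the unadjusted p ranged from 0.0299 to 0.103 when each cow was left out.

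COLEC11, a collectin that can also carry MASP proteases, was at 6.83 to 7.30 in control cows (median 6.93) and 7.04 to 7.25 in GSGME cows (median 7.15). One control cow, control_825, held the highest signal of all 12, and the other 5 control cows were below every GSGME cow. The difference was 0.16 ± 0.09 (SE; limma p = 0.0873, exact permutation p = 0.0649, adjusted p = 0.830) with all cows and 0.22 (unadjusted limma p of 0.00713) without control_825, which had the lowest array weight in limma (0.431). COLEC10, its partner in the heteromeric collectin, was at 7.78 ± 0.27 in the controls and 7.92 ± 0.06 in the GSGME group (SD, n = 6 each), a difference of 0.14 ± 0.11 (SE; limma p = 0.229, exact permutation p = 0.264), which was 0.06 without control_1031 and 0.21 without control_819. For MASP1, the protease that activates MASP2, the means were 10.13 ± 0.22 and 10.23 ± 0.23. For FCN1, a ficolin of monocytes in human blood, they were 7.56 ± 0.16 and 7.55 ± 0.16. The gene table used for names lists FCN2 as a synonym of FCN1 in cattle.

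**Figure D2:**
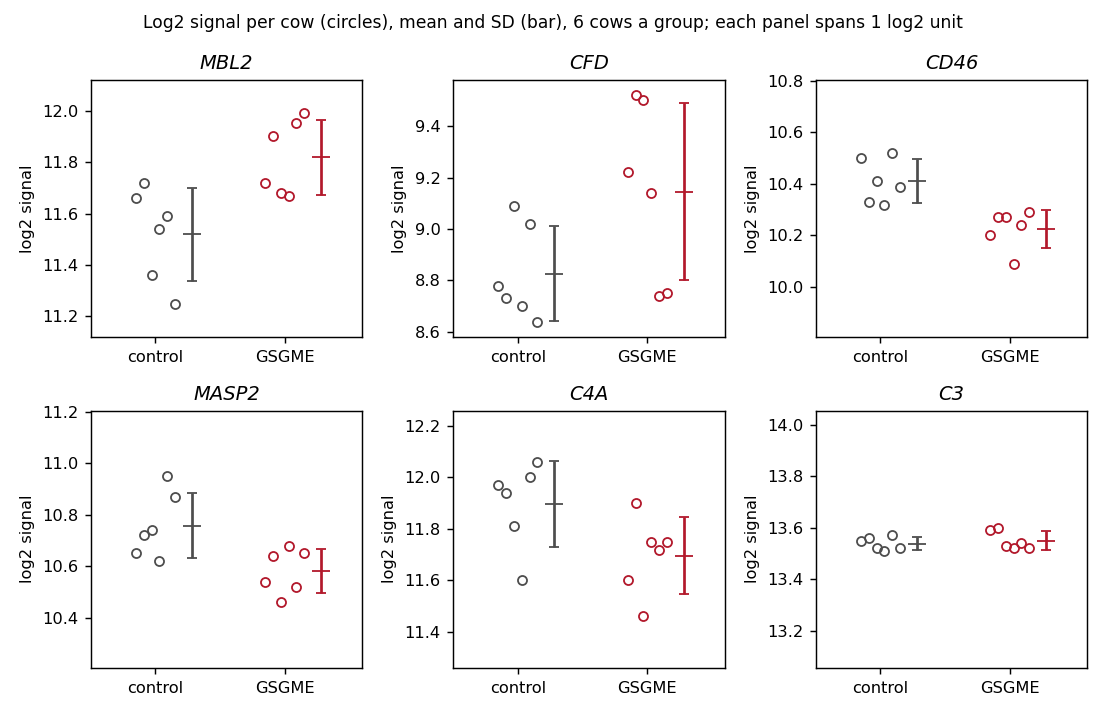
Log2 signal of 6 complement genes in each of the 12 cows (circles), with the group mean and SD (bar) beside them; each panel spans 1 log2 unit. The groups do not overlap for CD46, overlap in part for the other genes shown, and the C3 signals of all 12 cows lie within 0.09.

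The classical pathway is started by C1q, whose 3 chains are encoded by C1QA, C1QB and C1QC. C1QA was at 9.61 ± 0.29 in the controls and 9.74 ± 0.36 in the GSGME group (SD, n = 6 each). C1QB was at 11.25 ± 0.17 and 11.23 ± 0.29, and C1QC at 9.81 ± 0.23 and 10.02 ± 0.45. The 3 chains were highest in the same 3 cows, GSGME_741, GSGME_821 and control_1031, so that the spread ran within the groups more than between them. C1R and C1S encode the proteases of the C1 complex. C1R was at 12.04 ± 0.11 and 12.08 ± 0.07, and C1S at 12.41 ± 0.10 and 12.40 ± 0.09, with both intervals within a fold of 1.3.

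C4A, the only C4 gene in the bovine gene table used, encodes the component that is cleaved next. Its signal was 11.60 to 12.06 in control cows (median 11.96) and 11.46 to 11.90 in GSGME cows (median 11.74). Of the control cows, 5 were at 11.81 or more, and of the GSGME cows only GSGME_741 was. The difference was -0.20 ± 0.10 (SE), with a 95% interval of -0.41 to 0.01 (limma p = 0.0593, exact permutation p = 0.0584, adjusted p = 0.830). The unadjusted limma p fell to 0.0143 without control_1041 and to 0.0312 without GSGME_741, and was 0.0538 to 0.141 without any other. After cyclic loess normalization it was 0.0324. C2, which supplies the protease of the C3 convertase, varied most among the hepatocyte-made genes, from 10.62 to 11.83 in control cows (median 11.32) and from 11.09 to 11.76 in GSGME cows (median 11.42). Both the lowest and the highest C2 signal were thus found in control cows, control_1150 and control_1031.

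In the alternative pathway, C3, the component on which all routes meet, had nearly the same signal in every cow. It was 13.51 to 13.57 in control cows (median 13.54) and 13.52 to 13.60 in GSGME cows (median 13.54). The difference was 0.01 ± 0.06 (SE; limma p = 0.851, exact permutation p = 0.515), with a fold between -1.09 and 1.10 as its 95% interval. The sign of this small difference turned after cyclic loess normalization (-0.02). The pooled SD of C3 within groups was 0.03, and 0.0224% of all transcripts had a smaller one. The limma interval is wider than that SD alone would give, since limma moderates each variance towards the common one. Signals near the top of the scale also varied less in general: the median pooled SD was 0.13 over the 172 transcripts with a mean of 12 or more, and 0.20 over all. Whether the array still follows RNA differences in proportion at such signals was not tested. CFB, the factor that supplies the protease of the alternative convertase, was at 12.86 ± 0.06 and 12.85 ± 0.07 (SD, n = 6 each).

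CFD encodes the protease that cleaves factor B, and is known in human and mouse as a product of fat cells and myeloid cells. Its signal was 8.64 to 9.09 in control cows (median 8.76) and 8.74 to 9.52 in GSGME cows (median 9.18). The GSGME cows were split: 4 were above the highest control cow, and the other 2, GSGME_1124 and GSGME_1001, were at 8.74 and 8.75. The difference was 0.32 ± 0.15 (SE), a fold of 1.25 with an interval of 1.00 to 1.55 (limma p = 0.0478, exact permutation p = 0.0628, adjusted p = 0.830). Without GSGME_1124 or without GSGME_1001 it was 0.40 (unadjusted limma p of 0.0146 and 0.0155) and past the criterion, and over all cows left out in turn p reached 0.116. CFP encodes properdin, which stabilizes the alternative convertase, and was at 6.69 ± 0.26 and 6.72 ± 0.32.

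The 7 genes of the terminal pathway encode C5 to C9, which assemble into the membrane attack complex. None passed the test at an unadjusted p under 0.05, and 6 of the 7 intervals lay within a fold of 1.3. The median difference of the 7 was -0.06. C5 was at 12.50 ± 0.12 in the controls and 12.43 ± 0.08 in the GSGME group (SD, n = 6 each), C6 at 12.32 ± 0.16 and 12.25 ± 0.19, and C9, which forms the ring of the pore, at 12.97 ± 0.12 and 12.91 ± 0.09. The means of the 3 chains of C8 differed little, and their intervals lay within a fold of 1.3. C8A was at 12.00 ± 0.15 and 12.01 ± 0.10, C8B at 12.21 ± 0.19 and 12.25 ± 0.16, and C8G at 11.12 ± 0.20 and 11.10 ± 0.18. C7, which in human tissues is made mainly outside the hepatocyte, was the exception in its spread. It ranged from 7.69 to 8.28 in control cows and from 7.26 to 8.61 in GSGME cows, so that both extremes were GSGME cows, GSGME_1124 and GSGME_741.

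Among regulators, CD46 was the only complement gene whose groups did not overlap, against 0.217% of all transcripts in either direction, 0.0859% higher and 0.131% lower. CD46 encodes a membrane cofactor that helps factor I to inactivate C3b and C4b on the cell's own surface, and in cattle it is also known as a receptor of bovine viral diarrhea virus. Control cows were at 10.32 to 10.52 (median 10.40) and GSGME cows at 10.09 to 10.29 (median 10.26). Every GSGME cow was thus below every control cow, and the nearest cows were at 10.29 and 10.32. The difference was -0.19 ± 0.07 (SE), a fold of -1.14 with an interval of -1.26 to -1.02 (limma p = 0.0201, exact permutation p = 0.00216, adjusted p = 0.830). This exact p is the smallest that 6 cows against 6 can give. The limma p was 0.016 to 0.0517 with each cow left out, and over 0.05 only without GSGME_1143.

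The other membrane regulators varied more than CD46. CD59, which blocks the insertion of C9, was at 10.48 to 11.34 in control cows (median 10.82) and 10.97 to 11.23 in GSGME cows (median 11.02), and the GSGME range lay inside the control range. The difference was 0.15 ± 0.13 (SE; limma p = 0.278, exact permutation p = 0.329), and it was 0.06 without control_1150 and 0.23 without control_1031. CD55, which takes convertases apart, was at 6.97 ± 0.49 and 7.14 ± 0.47 (SD, n = 6 each), with a pooled SD larger than that of 94.9% of all transcripts.

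None of the 6 soluble regulators passed the test, and 5 of their intervals lay within a fold of 1.3. VTN encodes vitronectin, which keeps the terminal complex out of membranes. It was at 13.17 ± 0.15 in the controls and 13.28 ± 0.05 in the GSGME group (difference 0.11 ± 0.08, SE; limma p = 0.207, exact permutation p = 0.162), and the difference was 0.07 without control_1017 and 0.15 without control_1031. SERPING1, the inhibitor of the C1 proteases, was at 12.95 ± 0.09 and 12.91 ± 0.07, CFI, the factor I protease that cuts C3b and C4b, at 12.52 ± 0.11 and 12.56 ± 0.13, and CLU, clusterin, at 12.89 ± 0.13 and 12.90 ± 0.09. The chains of C4b-binding protein, a cofactor of factor I, differed in spread: C4BPA was at 12.11 ± 0.12 and 12.12 ± 0.13, and C4BPB at 8.87 ± 0.30 and 8.76 ± 0.32.

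All 3 receptor genes had the higher mean in GSGME cows, and none passed the test on the deposited values. C5AR1, which binds the chemoattractant C5a on myeloid cells, was at 5.60 to 5.84 in control cows (median 5.68) and 5.71 to 6.23 in GSGME cows (median 5.78). The difference was 0.16 ± 0.09 (SE; limma p = 0.118, exact permutation p = 0.0563), and 0.08 without GSGME_821, which held the 6.23. After cyclic loess normalization it was 0.21 (unadjusted limma p of 0.0267). C3AR1, the receptor of C3a, ranged from 6.43 to 7.82 in control cows and from 7.01 to 8.02 in GSGME cows, with GSGME_821 again the highest. CR2, a receptor of C3 fragments on B cells and follicular dendritic cells, had the largest spread of the 36, a pooled SD of 0.57. It ran from 6.32 to 8.27 in control cows and from 7.10 to 7.88 in GSGME cows. The 5 B cell markers measured of 6 averaged 5.66 to 5.99 and 5.78 to 6.05 per cow, and their lowest mean was in control_819, which held the highest CR2. Only 1 of these 5, CD79A, was above the median transcript, and the part of B cells in the CR2 signal was not tested.

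The genes were sorted by their main source, with regulators kept apart as a class by function whatever their source. By median pooled SD, the hepatocyte-made and the regulatory genes varied least between cows of a group. The hepatocyte-made class held 16 measured genes, of which 8 had the higher and 8 the lower mean in GSGME cows. Their median difference was 0.00, their range -0.20 (C4A) to 0.30 (MBL2), and 13 of 16 intervals lay within a fold of 1.3. The median pooled SD of the class was 0.13. The 9 regulatory genes had 6 higher means, a median difference of 0.02 and a median pooled SD of 0.12. Among them CD55 (0.48), C4BPB (0.31) and CD59 (0.23) had a larger pooled SD than the median transcript (0.20), and the rest a smaller one. The 7 macrophage-made genes (the C1q chains, CFP, FCN1, C3AR1 and C5AR1) had 5 higher means, a median difference of 0.13 and a median pooled SD of 0.29, and 4 intervals within a fold of 1.3. The 4 genes of other or mixed source (C7, CFD, COLEC10 and CR2) had no interval within that fold and a median pooled SD of 0.31. The classes also differ in signal and no test was made between them. After cyclic loess normalization the class medians were -0.03 (hepatocyte-made), -0.02 (regulatory) and 0.09 (macrophage-made), so that the first and the second turned their sign. The median of the macrophage-made class was 0.02 to 0.17 with each cow left out.

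Among the macrophage-made genes, the C1q chains followed single cows, while FCN1 was highest in control_1150 (7.78) and C5AR1 was lowest of the GSGME group in GSGME_741 (5.71). The mean of the 3 C1q chains was 9.96 to 10.59 in control cows (median 10.22) and 9.99 to 10.80 in GSGME cows (median 10.17). GSGME_741 (10.80) and GSGME_821 (10.77) and control_1031 (10.59) were the highest, and the other 4 GSGME cows were below the control mean. The mean of 13 macrophage markers measured of 14, among them CD68, CD163 and MARCO, was 8.30 to 8.91 in control cows and 8.46 to 9.27 in GSGME cows. It was highest in the same 3 cows, with 9.27 in GSGME_821, 8.97 in GSGME_741 and 8.91 in control_1031, and lowest in control_825, which also had the lowest C1q mean. Not every marker followed this mean. CD163 was highest in control_1150 (9.76), TIMD4 in control_819 (7.59) and CD14 in GSGME_1001 (9.84), and the others in GSGME_821 or GSGME_741. None of the 13 markers was close to background, none passed the criterion, and their median difference between groups was 0.08. The mean of 7 neutrophil and monocyte markers measured of 8 was also highest in control_1031 (6.54), GSGME_741 (6.26) and GSGME_821 (6.05), against 5.34 to 5.88 in the other 9. Of these 7, LYZ, the lysozyme gene, passed the criterion with the higher mean in GSGME cows (fold 1.72), where 1.2% of all transcripts did. With the methods' t-test in place of limma, LYZ did not pass. Of the 7 markers, 3 had the higher and 4 the lower mean in GSGME cows, with a median difference of -0.06. The mean of 8 endothelial markers was highest in GSGME_821 (8.58) and GSGME_741 (8.51), and those of the stellate cell and fibroblast (7.92) and the T and NK cell markers (6.78) were also highest in GSGME_821. Of the 6 T and NK cell markers, CD3D passed the criterion with the higher mean in GSGME cows (fold 1.35). It lay below the median transcript and did not pass with the methods' t-test in place of limma. Of these 6 markers, 4 had the higher and 2 the lower mean in GSGME cows, with a median difference of 0.10. The part of these cell types in the C1q, C3AR1 and C5AR1 signals was not tested.

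**Figure D3:**
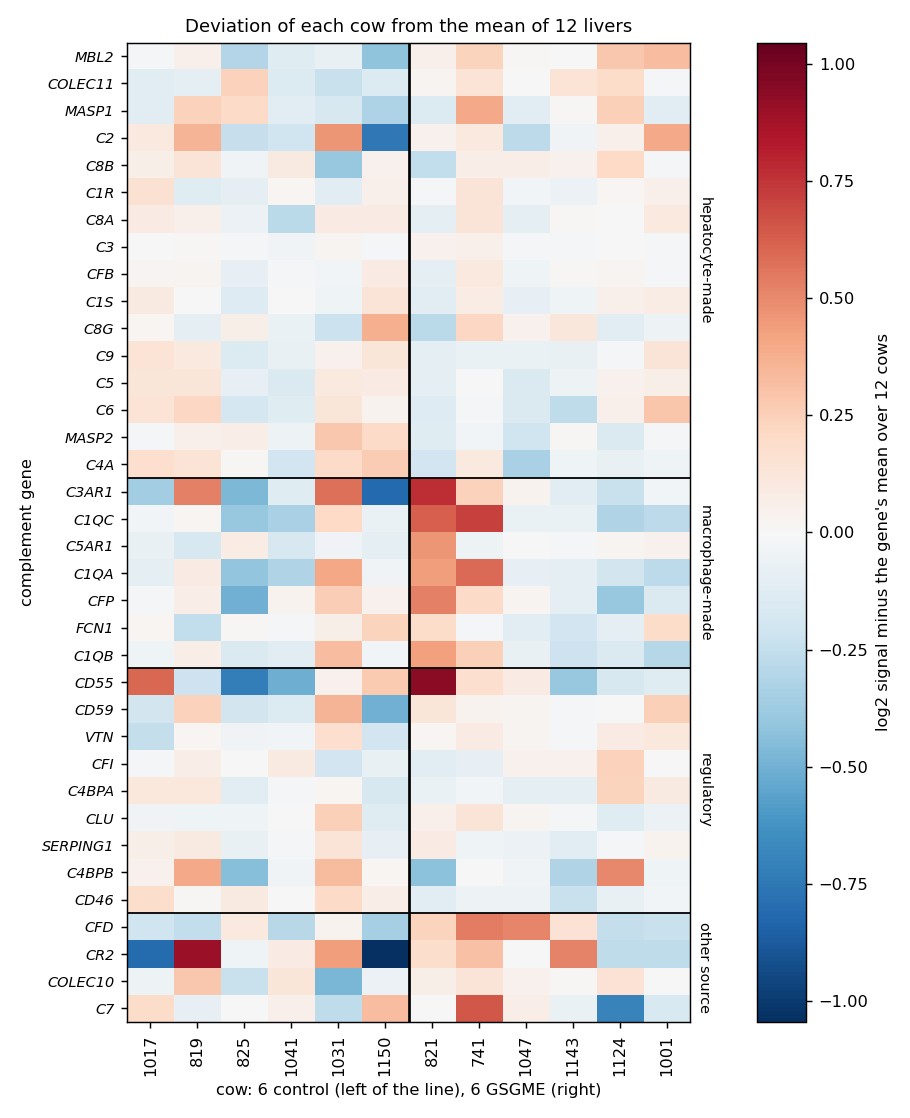
Deviation of each complement gene (one line each, grouped by source class) from its mean over the 12 cows, in log2 signal as colour, with cows as columns, controls first. The C1q chains, C3AR1 and CFP are high together in control_1031, GSGME_741 and GSGME_821 and low in control_825, while most hepatocyte-made genes stay near 0 in every cow.

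Subunits of 1 complex and other partner genes were compared over the 12 cows in 10 chosen pairs, and 5 pairs correlated after Benjamini-Hochberg adjustment over the 10 (permutation test, 2-sided). C1QA and C1QC correlated most closely, with r = 0.960 and rho = 0.944 (adjusted permutation p = 0.0001 for r, from the smallest p the resamples can give). For C1QA and C1QB r was 0.90 and rho 0.837 (adjusted permutation p = 0.00173 for r), and for C1QB and C1QC they were 0.865 and 0.818 (adjusted permutation p = 0.00173). In the bovine gene table C1QC is the protein-coding gene next to C1QA, and 1 other gene separates it from C1QB. Without the 2 cows farthest from the median of the first gene these r were 0.948, 0.866 and 0.839. Over the 9 cows other than GSGME_741, GSGME_821 and control_1031, a choice made after seeing the values, they were 0.934, 0.649 and 0.576.

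The neighbouring genes C4BPA and C4BPB correlated at r = 0.713 and rho = 0.656 (adjusted permutation p = 0.0223 and 0.0454), and at r = 0.717 without the 2 farthest cows. The neighbours C1R and C1S did so at r = 0.701 and rho = 0.724 (adjusted permutation p = 0.0228 and 0.0238), and at r = 0.615 without the 2 farthest. Within the 6 control and the 6 GSGME cows taken alone, r of the 5 pairs was 0.622 to 0.970 and 0.779 to 0.991.

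The chains of C8 did not follow each other in the same way. C8A and C8B, which are neighbours in the genome, had r = -0.0644 (adjusted permutation p = 0.840), C8A and C8G r = 0.317 (adjusted p = 0.393), and C8B and C8G r = 0.469 (adjusted p = 0.208). The last r was -0.378 without the 2 farthest cows and thus rested on them. C2 and CFB, also neighbours, with proteins of the same build, had r = -0.103 (adjusted permutation p = 0.838), and the receptors C3AR1 and C5AR1 r = 0.396 (adjusted permutation p = 0.303). Without the 2 farthest cows r was 0.416 for C2 and CFB and -0.43 for the receptors, so both signs turned.

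**Figure D4:**
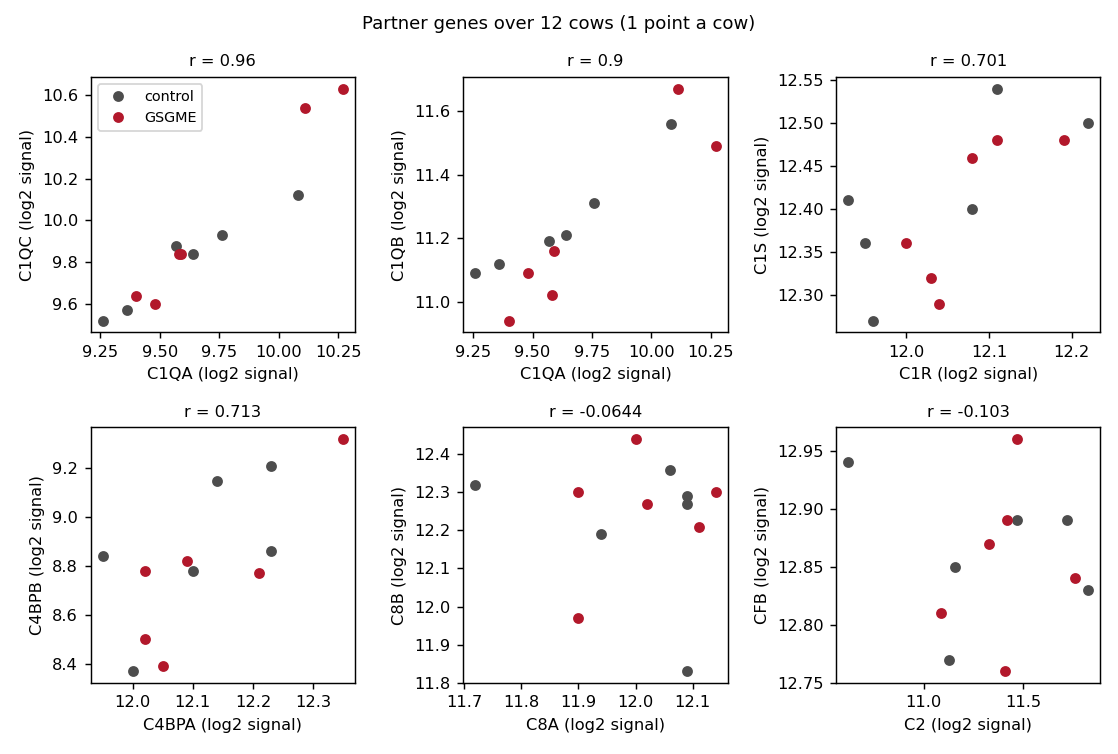
Log2 signals of partner genes plotted against each other, 1 point per cow, controls and GSGME cows in different colours. The C1q chains, C1R with C1S and C4BPA with C4BPB run together, and C8A with C8B and C2 with CFB do not.

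The extremes of the 36 genes also fell unevenly on the cows. GSGME_741 held the highest of the 12 signals for 8 genes and the lowest for none. For control_825 the lowest fell on 7 genes and the highest on 1, and for control_1150 on 9 and 4. Genes that correlate, such as the C1q chains, are not independent in these counts. Control_1031 held the highest for 7 and the lowest for 4, so that a cow's place was not the same across the genes.

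Of 26 further genes tied to complement, 15 had a transcript annotated with their symbol alone, and no level is given for the others. Of these 15, 1 passed the criterion with the higher mean in GSGME cows, where 1.2% of all transcripts did. With the lower mean 0 passed, where 0.624% did. The gene that passed was APCS, which encodes serum amyloid P, a pentraxin that binds C1q and is made by hepatocytes. Its signal was 11.30 to 11.63 in control cows (median 11.44) and 11.57 to 12.20 in GSGME cows (median 12.06), and 5 of the 6 GSGME cows were above the highest control cow. The difference was 0.51 ± 0.11 (SE), a fold of 1.42 with an interval of 1.21 to 1.68 (limma p = 0.000423, exact permutation p = 0.00433, adjusted p = 0.830), and 0.46 to 0.59 with each cow left out. The related pentraxin CRP was at 12.26 ± 0.19 and 12.16 ± 0.06 (SD, n = 6 each). Next in order of p came C1RL, a C1r-like protease (difference -0.23 ± 0.13, SE; limma p = 0.115, exact permutation p = 0.143, and -0.12 without control_1031), and CD93, a membrane protein of endothelial and myeloid cells once taken for a C1q receptor (0.20 ± 0.14, SE; limma p = 0.165, exact permutation p = 0.203, and 0.09 without GSGME_821). The median difference of the 15 genes was -0.07.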

How the data were processed

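The authors extracted total RNA from the biopsies, hybridized it to Affymetrix Bovine Gene 1.0 ST arrays, and computed the deposited log2 signals with RMA in Affymetrix Expression Console (versions not given in the sources used here), which corrects background, quantile-normalizes and summarizes probes. RMA gives all arrays nearly the same distribution, so a shift of the whole transcriptome cannot be seen. The deposited log2 values, with 2 decimals, cover 12 arrays and 26773 transcripts. The number of arrays limits the precision. The deposited table was used as it stands.

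Transcripts were named from the platform annotation. Of all transcripts, 18457 had 1 symbol, 688 had several and 7628 had none. Gene IDs of all 36 complement genes matched a bovine gene table (assembly ARS-UCD2.0), which gave synonyms and neighbours. Coordinates are not printed, since the build of the array's design was not given.

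Groups were taken from the labels. All transcripts were fitted with limma 3.58.1 (lmFit and eBayes, 2-sided, no covariate) in R 4.3.3. The criterion of the methods was kept (fold of more than 1.3 either way, p below 0.05 before adjustment), with Benjamini-Hochberg adjustment over all transcripts. A fold below 0 stands for -1 divided by the ratio. P-values of the group comparison set the difference of the means against the variation within groups. With 1 array per cow, this variation holds cow, biopsy and array together. Named with a difference and p were the 10 complement genes with the lowest p, C3, and of the further complement genes those past the criterion and the 3 with the lowest p. The cell type markers past the criterion, LYZ and CD3D, were named with a fold only. Pairs were tested by permutation (100000 resamples) with Python 3.11.15 and scipy 1.17.1. Source classes follow general knowledge, partly from human and mouse. The genes, classes, lists and pairs were chosen with earlier results of these data known. The fit was tested on simulated data with known changes before use.

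Alternatives were cyclic loess between arrays, the methods' t-test, a robust eBayes with trend, array weights, only transcripts above the median, other fold thresholds (1.2, 1.5, none), the mean in place of the median over a class, and leaving out each cow. Of these, only cyclic loess was applied to the pairs, which were also rerun on deviations from the group means. Exact permutation tests of single genes and the pairs over 9 cows were added after seeing the data.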

Additional observations from a re-analysis of the deposited data

Results flagged for a closer look

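In 6 of 78 groups of 6 cows tested, 1 cow lay apart from the other 5 by Dixon's criterion, which chance alone meets in about 1 in 20 groups. control_825 had the highest COLEC11 of its group, 7.30 against 6.83 to 6.97 in the other 5, and the lowest CFP, 6.20 against 6.69 to 6.96. control_1031 had the lowest C8B, 11.83 against 12.19 to 12.36, and the highest CLU, 13.14 against 12.77 to 12.89. GSGME_821 had the highest C5AR1, 6.23 against 5.71 to 5.81, and GSGME_1001 the highest C9, 13.07 against 12.84 to 12.92.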

How the results depend on the processing

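No complement gene met the criterion in either direction, and 1 did, with the higher mean in GSGME cows, when GSGME_1124 or GSGME_1001 was left out (CFD in both cases, so the range is 0 to 1). At a fold threshold of 1.2 there were 2 with the higher mean (MBL2 and CFD, against 2.04% of all transcripts), and with no fold threshold 2 with the higher and 2 with the lower mean. The methods' t-test called 0 complement genes at the same criterion and 0 after Benjamini-Hochberg adjustment, with 3 (MBL2, CD46 and MASP2) at an unadjusted p under 0.05, against 5.71% of all transcripts. The C3 difference turned to -0.0218 under cyclic loess, and the cause was not tested. For the 14 complement and further complement genes with a printed p, 248 further combinations of gene and setting kept their sign and their side of the criterion. This side says little about p, since all of the 14 except APCS had a fold under 1.3. Within these combinations some unadjusted limma p-values crossed 0.05. C4A was at 0.0324 and C5AR1 at 0.0267 under cyclic loess, COLEC11 at 0.0216 with array weights, and MASP2 at 0.103 without control_1031. The pairs were rerun only under cyclic loess and on deviations from the group means, and the same 5 pairs passed in both. Over 9 cows only r was computed, without a test. The class medians with each cow left out were -0.02 to 0.02 for hepatocyte-made, 0.02 to 0.17 for macrophage-made and -0.02 to 0.04 for regulatory genes. No paired analysis was possible because the groups share no cow numbers. Averaging several transcripts of a gene changed nothing, since each gene had 1. An exact permutation test over the 12 cows was added after seeing the data. It leaves the fold as it is, so of these 14 genes it could change the call of APCS only. APCS stayed past the criterion (exact p = 0.00433). CFD, however, was not under 0.05 (exact p = 0.0628). The exact test was not run for the markers LYZ and CD3D. For 13 complement genes the interval reached beyond a fold of 1.3.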
